A study of Mus musculus with 24 samples.

Results

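The 47 genes described here encode the enzymes by which a muscle fibre turns pyruvate and fatty acids into reducing equivalents, namely the pyruvate dehydrogenase complex, the tricarboxylic acid (TCA) cycle and fatty acid oxidation. They were chosen by symbol from the 24537 genes of the count table, and all 47 were found there. No measured value entered the choice, although earlier results of these data were known. By role, 9 belong to pyruvate entry and its control, 13 to the TCA cycle, 7 to fatty acid uptake and activation, 16 to beta-oxidation and electron transfer, and 2 to ketone body use.

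In mitochondria, the pyruvate dehydrogenase complex makes acetyl-CoA from pyruvate, and the pyruvate dehydrogenase kinases switch this complex off. Fatty acids enter the fibre by lipoprotein lipase and CD36, are bound to CoA by Acsl1, pass the mitochondrial membrane by the carnitine shuttle that Cpt1b begins, and are shortened by beta-oxidation to acetyl-CoA, which the TCA cycle burns. Slow-twitch fibres rely on these pathways more than fast-twitch fibres, which draw more on glycolysis.

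RNA was sequenced from whole extensor digitorum longus (EDL) and soleus (SOL) muscles, a fast-twitch and a slow-twitch muscle, of 2-month-old Acta1-Cre+/4Fhet mice (Cre+) and Acta1-Cre-/4Fhet mice (Cre-). Both genotypes carried the cassette of the reprogramming factors Oct4, Sox2, Klf4 and c-Myc (OSKM) and an rtTA activator blocked by a LoxP-STOP-LoxP element, and both were given doxycycline (Dox) in the drinking water, at 1 mg/ml, for 1 of 3 periods: 2.5 days, 5.5 days or 8.5 days. Cre is driven by the skeletal muscle actin promoter Acta1, so rtTA is released in myofibers of Cre+ mice, together with a GFP transgene. Effects of Cre itself, of rtTA or of GFP and those of OSKM cannot be told apart. There were 2 libraries for each muscle, genotype and day, and 24 in all. The study, which reports 2.5 and 8.5 days, describes the 2 samples of a group as biologically independent. Totals were 36088781 to 53041969 counts in the 16 libraries of 2.5 and 8.5 days and 37834210 to 54679082 in the 8 of 5.5 days.

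The labels were checked first. The summed level of Pou5f1 (Oct4), Sox2, Klf4 and Myc was 27.2 to 59.9 CPM (counts scaled to the library total) in Cre- EDL muscles and 176 to 590.4 CPM in Cre+ EDL muscles of 2.5 and 8.5 days (n = 4 each), and 39.8 to 74.8 CPM against 76.7 to 140.4 CPM in SOL muscles. By the edgeR test given below, all 4 genes were called higher in Cre+ EDL muscles on both of these days. In SOL muscles Pou5f1 and Sox2 alone were called higher, also on both days. Of the markers of fast fibres all 9, and of those of slow fibres all 8, separated the muscles of Cre- mice in the direction of their names. Since whole muscles were used, fewer myofibers and less RNA per myofiber cannot be told apart.

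Of the members, the table of RefSeq promoters used here holds a window of 300 bases, 250 before and 50 after the start, for 41. These windows were rich in CpG, with a median of 19 CpG (from 3 in Cd36 to 34 in Acadl) and 61% G and C, against 7 CpG and 52.7% over all 27025 windows. The bases before the start are shown for the member that rose and the member that fell most in Cre+ EDL muscles after 2.5 days, Idh2 (100 bases, chr7:80115351-80115450, minus strand, GRCm38.p6) and Mdh1 (100 bases, chr11:21571935-21572034, minus strand), with CpG in capitals.
Idh2: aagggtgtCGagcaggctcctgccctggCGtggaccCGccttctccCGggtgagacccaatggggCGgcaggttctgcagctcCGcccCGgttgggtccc
Mdh1: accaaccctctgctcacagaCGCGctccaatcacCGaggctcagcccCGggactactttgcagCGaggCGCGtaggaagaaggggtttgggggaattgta
Both stretches hold 7 CpG.

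The motif CACGTG, the E-box read by Myc with its partner Max, was found on either strand in the windows of 2 of the 41 members (4.88%), Pdk2 and Pcx, against 7.24% of all windows. AAGGTCA, a site read by the estrogen-related receptors, which act on oxidative genes, was in 1 window (2.44%), that of Acadm, against 4.66% of all. The direct repeat read by PPAR with RXR, which holds AGGTCA on both sides of 1 base and can overlap that site, was in 0 of 41 windows and in 0.0444% of all. The E-box of Pcx, a member that fell on both days, is shown in capitals with the bases after it (chr19:4510222-4510269, plus strand).
Pcx: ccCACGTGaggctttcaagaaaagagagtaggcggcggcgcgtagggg
A match of letters is a description of the window and does not show that a factor binds there.

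After 2.5 days of Dox, 21 of the 47 members were lower and 1 was higher in Cre+ than in Cre- EDL muscles. Among all 15372 genes tested, 10.2% were called lower and 13.8% higher. A gene was called where edgeR's quasi-likelihood test gave an adjusted p under 0.05 with a log2 change of more than 0.5 in either direction. The median log2 change of the members was -0.51, against -0.05 for all genes. After 8.5 days, 23 members were lower and 0 higher, against 6.5% and 7.63% of all genes, with a median of -0.51 against -0.02. While edgeR called 0 members higher on that day, Idh2 had an unadjusted p under 0.05 above 0, and DESeq2 on the same libraries called it (1 member).

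Both counts rest on how the libraries were scaled. When libraries were scaled by their totals alone, without TMM factors, which were 1.07 to 1.21 in Cre+ and 0.92 to 0.98 in Cre- EDL muscles, 3 members were lower after 2.5 days (Mdh1, Cpt1b and Acadvl) and 3 higher (Idh2, Pdk1 and Acaa2), and 10 were lower and 1 higher after 8.5 days. The median of all genes was then 0.28 and 0.16, and the members lay below it by 0.45 and 0.50, as they lay below the median of all genes by 0.46 and 0.49 under TMM. The changes below are therefore relative to the bulk of genes. The members took 1.59% to 1.77% of all counts in Cre- EDL muscles and 1.36% to 1.502% in Cre+ EDL muscles (n = 4 each), and these ranges did not overlap.

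**Figure D1:**
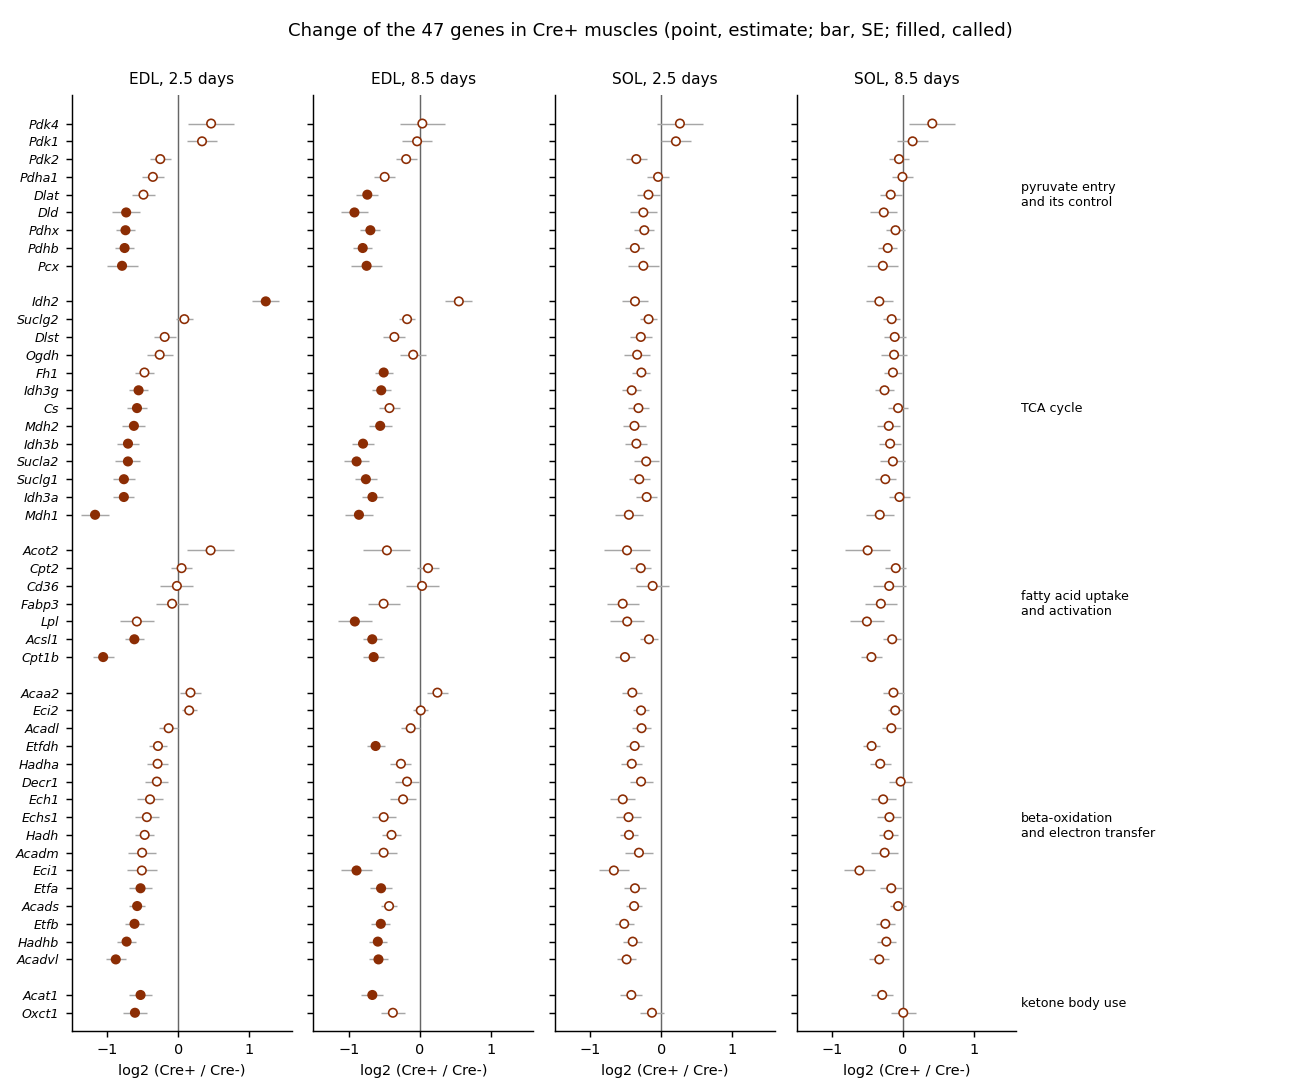
The log2 change between Cre+ and Cre- muscles is plotted for each of the 47 genes, grouped by role, in EDL and SOL muscles of both days (2.5 and 8.5; point, estimate; bar, SE; filled point, called; n = 2 libraries per group). In EDL muscles 21 genes are filled on the left after 2.5 days and 23 after 8.5 days, Idh2 alone is filled on the right, and no point is filled in SOL muscles.

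The calls of 8.5 days rested on single libraries. A fit without 1 library leaves 1 in its group, which can lose the call of any gene. The counts over all genes in such fits are not given here, so a loss of calls is not shown to be particular to the members. Without the first Cre+ EDL library of that day 1 member was lower (Pdhb), and without the first Cre- library 10. After 2.5 days the count of lower members was 13 without the second Cre+ library and 14 without the second Cre- library. Of the 22 members called in EDL muscles after 2.5 days, 11 were called whichever library was left out: Pdhb, Pdhx, Idh2, Idh3a, Idh3b, Suclg1, Mdh1, Cpt1b, Acadvl, Acads and Hadhb. Between the days, 18 members were lower on both, 3 after 2.5 days (Acads, Cs and Oxct1) and 5 after 8.5 days (Dlat, Eci1, Etfdh, Fh1 and Lpl). The difference between the days was called for 0 members by edgeR and by DESeq2, and by edgeR for 0% of all genes. At an unadjusted p under 0.05 there were 1 member, Idh2, and 1469 genes in all, so neither list is shown to belong to its day.

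In each Cre+ EDL library of these days the members lay lower as a group. Their median against the Cre- mean was -0.49 and -0.46 in the Cre+ EDL libraries of 2.5 days and -0.69 and -0.42 in those of 8.5 days. Both Cre+ libraries lay below both Cre- libraries for 36 members after 2.5 days, against 34.2% of all genes, and for 34 after 8.5 days, against 28.7%, in TMM-scaled counts.

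**Figure D2:**
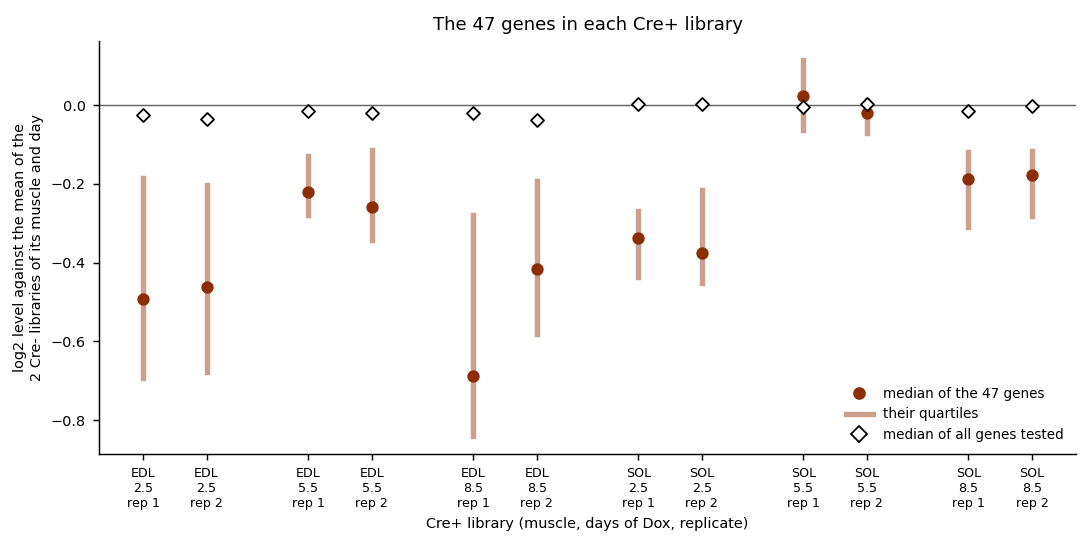
For each Cre+ library, the plot gives the median (point) and quartiles (bar) of the 47 genes on a log2 scale against the mean of the 2 Cre- libraries of the same muscle and day, after TMM scaling, with the median of all genes tested (diamond). The medians of the 47 genes lie from -0.69 to -0.42 in EDL muscles of 2.5 and 8.5 days, from -0.37 to -0.18 in SOL muscles of those days, and near 0 in SOL muscles of 5.5 days, while the diamonds stay near 0.

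Levels of single genes are given as FPKM, the count divided by exon length and by the library total, and changes as log2 fold changes of the TMM-scaled fit with their SE. Where TMM factors were higher in Cre+ muscles, a fall is therefore larger, and a rise smaller, than the FPKM values alone show.

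Of the 5 subunits of the pyruvate dehydrogenase complex, Pdhb, Pdhx and Dld were called lower on both days and Dlat after 8.5 days. Among all genes 10.2% were called lower in EDL muscles after 2.5 days and 6.5% after 8.5 days. Of the kinases that switch the complex off, 3 are members, and edgeR called 0 of them on either day. Among these 3, 0 had an unadjusted p under 0.05, and DESeq2 called 0. Pdk3, a kinase outside the members, was called higher after 2.5 days (1.13 ± 0.31). Pdhb, the beta subunit of the first enzyme, changed by -0.76 ± 0.13 (adjusted p = 0.0013) after 2.5 days and by -0.80 ± 0.13 (adjusted p = 0.002) after 8.5 days. Pdhx, which anchors the third enzyme, changed by -0.74 ± 0.14 and -0.70 ± 0.14, and Dld, the third enzyme itself, by -0.73 ± 0.19 and -0.92 ± 0.19, all called. Dlat, the core acetyltransferase, was called after 8.5 days (-0.74 ± 0.16) and had -0.49 ± 0.16 after 2.5 days.

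Pdha1, the alpha subunit that the kinases phosphorylate, was the most abundant member of this role. It stood at 335 and 309.9 FPKM in Cre- and at 299.7 and 334 FPKM in Cre+ EDL muscles after 2.5 days, and at 378 and 289 against 251 and 282 FPKM after 8.5 days. The groups overlapped on the first day and not on the second, and neither change was called (-0.36 ± 0.15 and -0.49 ± 0.15). Reads of Pdha1 and of Map3k15, which overlaps it on the other strand, may not be separated in these counts.

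Of the kinases, Pdk2 had -0.25 ± 0.15 and -0.19 ± 0.15 and Pdk1 had 0.34 ± 0.21 and -0.04 ± 0.21. Pdk4, the kinase that rises with fasting and fat use, stood at 54.6 and 45.2 FPKM in Cre- and at 52.5 and 122 FPKM in Cre+ EDL muscles after 2.5 days. After 8.5 days the values were 147 and 145 FPKM in Cre- and at 211 and 131 FPKM in Cre+ EDL muscles. The spread between the Cre+ libraries exceeded the difference of the groups on both days. Without the first Cre+ library of 2.5 days, Pdk4 was called higher on that day (log2 change 0.92), and without the second its estimate turned to -0.21 and was not called. Pdk4 in SOL muscles stood at 178 and 206 FPKM (Cre-) against 202 and 309 FPKM (Cre+) after 2.5 days, and at 561.5 and 595 against 957 and 632 FPKM after 8.5 days. Pdk4 therefore differed more between the days of Cre- mice than between genotypes, and its changes were not called (adjusted p from 0.31 to 0.96 in both muscles on these days).

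Pcx, pyruvate carboxylase, which refills the cycle with oxaloacetate, was called lower on both days. It stood at 15.1 and 16.1 FPKM in Cre- and at 12.3 and 10.3 FPKM in Cre+ EDL muscles after 2.5 days, and at 11.99 and 15.5 against 8.64 and 9.87 FPKM after 8.5 days. The groups did not overlap on either day, and the changes were -0.79 ± 0.22 (adjusted p = 0.017) and -0.75 ± 0.22 (adjusted p = 0.035).

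Of the TCA cycle, 8 of 13 members were lower on each day. Mdh1, the cytosolic malate dehydrogenase of the malate-aspartate shuttle, fell most of all members after 2.5 days. The gene lies at chr11:21556692-21571934 on the minus strand (GRCm38), and reads on its exons were counted. It stood at 418 and 491 FPKM in Cre- and at 252 and 255 FPKM in Cre+ EDL muscles after 2.5 days, a change of -1.17 ± 0.20 (adjusted p = 0.0011). On day 8.5 the levels were 521 and 409.6 FPKM against 248 and 329 FPKM, a change of -0.86 ± 0.20 (adjusted p = 0.012). The groups were apart on both days.

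Mdh2, its mitochondrial counterpart in the cycle, was the most abundant member in Cre- EDL muscles. It stood at 844 and 986 FPKM in Cre- and at 757 and 734 FPKM in Cre+ EDL muscles after 2.5 days, and at 814 and 857 against 595 and 686 FPKM after 8.5 days. All Cre+ libraries lay below the Cre- libraries of their day, with changes of -0.63 ± 0.16 and -0.56 ± 0.16, both called.

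The 2 kinds of mitochondrial isocitrate dehydrogenase changed in opposite directions after 2.5 days. The 3 subunits of the NAD-dependent enzyme of the cycle were lower on both days, Idh3a by -0.77 ± 0.15 and -0.67 ± 0.15, Idh3b by -0.71 ± 0.16 and -0.80 ± 0.16, and Idh3g by -0.56 ± 0.13 and -0.54 ± 0.13. Idh2, the NADP-dependent enzyme, was the member that rose, and its gene lies at chr7:80094847-80115350 on the minus strand. It stood at 162 and 108 FPKM in Cre- and at 365 and 434 FPKM in Cre+ EDL muscles after 2.5 days, a change of 1.24 ± 0.19 (adjusted p = 0.00059). After 8.5 days Idh2 was at 200.2 and 165 FPKM against 321 and 286 FPKM, a change of 0.55 ± 0.19 that was not called (adjusted p = 0.068), with no overlap of the groups on either day. In SOL muscles its levels were far higher and its estimate was below 0, at 1432 and 1166 FPKM in Cre- and 1036 and 1202 FPKM in Cre+ mice after 2.5 days, and at 1293 and 1473 against 1147 and 1103 FPKM after 8.5 days. The change of Idh2 in EDL exceeded that in SOL muscles by 1.61 ± 0.27 after 2.5 days (adjusted p = 0.0082), and this difference was called with any one library left out. After 8.5 days the difference was 0.88 ± 0.27 and was not called (adjusted p = 0.22).

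Cs, citrate synthase, was lower in RNA after 2.5 days, and mitochondrial content was not measured. It stood at 324 and 358 FPKM in Cre- and at 286 and 287 FPKM in Cre+ EDL muscles, a change of -0.58 ± 0.15 (adjusted p = 0.011). After 8.5 days Cs was at 307 and 357 FPKM against 274 and 285 FPKM, again without overlap, and the change of -0.43 ± 0.15 was not called (adjusted p = 0.069).

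Succinyl-CoA ligase, which makes ATP or GTP in the cycle, shares the subunit Suclg1 between its forms. Suclg1 changed by -0.77 ± 0.15 and -0.76 ± 0.15, and Sucla2, the subunit of the ATP form, by -0.71 ± 0.18 and -0.89 ± 0.18, all called. Suclg2, the subunit of the GTP form, was at 0.09 ± 0.12 and -0.18 ± 0.12, and in Cre- EDL muscles its level was 15.99 to 17.8 FPKM against 239 to 347 FPKM for Sucla2 (n = 4). The subunits of oxoglutarate dehydrogenase that belong to it alone, Ogdh (-0.26 ± 0.19 and -0.09 ± 0.19) and Dlst (-0.19 ± 0.16 and -0.36 ± 0.16), were not called, whereas Dld, which it shares with pyruvate dehydrogenase, was. Fh1, fumarase, was called after 8.5 days (-0.51 ± 0.13) and not after 2.5 days (-0.48 ± 0.13, adjusted p = 0.015, short of the fold threshold).

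**Figure D3:**
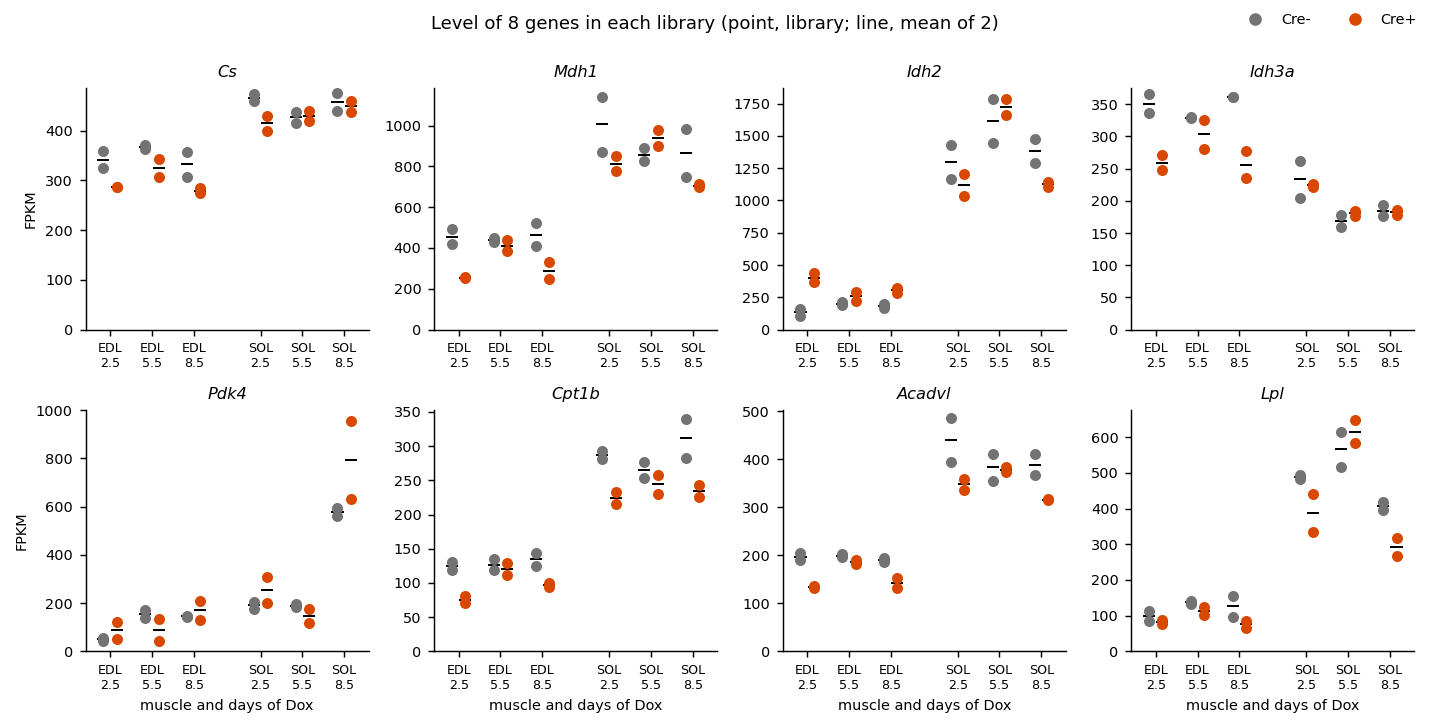
FPKM of 8 genes is plotted in each of the 24 libraries (grey, Cre-; orange, Cre+; line, mean of 2 libraries) by muscle and days of Dox, on linear axes that start at 0. Mdh1, Cpt1b, Acadvl and Idh3a are lower in both Cre+ EDL libraries of 2.5 and 8.5 days, Idh2 is higher there, and Pdk4 varies more between days and libraries than between genotypes.

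Of fatty acid uptake and activation, 2 of 7 members were lower after 2.5 days and 3 after 8.5 days. Cpt1b, the muscle carnitine palmitoyltransferase that sets the rate of fatty acid entry into mitochondria, had the lowest adjusted p of all members after 2.5 days. The gene (chr15:89416405-89425862, minus strand) overlaps the predicted gene Gm44502 on the same strand. It stood at 119 and 131 FPKM in Cre- and at 80.4 and 70.4 FPKM in Cre+ EDL muscles, a change of -1.06 ± 0.15 (adjusted p = 0.00028). After 8.5 days its levels were 125 and 144 FPKM against 94.0 and 99.8 FPKM, a change of -0.65 ± 0.15 (adjusted p = 0.0098), and the groups were apart on both days. Cpt2, the inner partner of the shuttle, was not called (0.05 ± 0.15 and 0.12 ± 0.15). Acsl1, the acyl-CoA synthetase of muscle mitochondria, was lower on both days (-0.62 ± 0.13 and -0.67 ± 0.13).

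Lpl, which frees fatty acids from circulating lipoproteins, stood at 114 and 86.1 FPKM in Cre- and at 78.1 and 89.3 FPKM in Cre+ EDL muscles after 2.5 days, with overlap and no call (-0.58 ± 0.24). After 8.5 days Lpl was at 157 and 97.5 against 65.5 and 85.8 FPKM and was called lower (-0.92 ± 0.24, adjusted p = 0.021). Cd36, the fatty acid carrier of the cell surface, stood at 70.8 and 55.5 FPKM in Cre- and 80.6 and 75.6 FPKM in Cre+ EDL muscles after 2.5 days, and at 106 and 55.6 against 90.6 and 95.4 FPKM after 8.5 days. No change of Cd36 was called (-0.02 ± 0.23 and 0.03 ± 0.23). Lpl and Cd36 are also expressed by adipocytes, and Cd36 by endothelium. The 7 markers of endothelium summed to 354 to 405 CPM in Cre- and 316 to 330 CPM in Cre+ EDL muscles after 2.5 days. Of these, 4 were called lower, against 10.2% of all genes. After 8.5 days these sums were 358 to 430.3 and 388 to 451 CPM, and edgeR called 0 of 7, with 0 at an unadjusted p under 0.05. The part of other cells in the levels of Lpl and Cd36 was not tested.

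Fabp3, the fatty acid carrier of muscle cytosol and the most abundant of this role in Cre- EDL muscles, was not called. It stood at 150.4 and 227 FPKM in Cre- and at 206 and 244 FPKM in Cre+ EDL muscles after 2.5 days, and at 345 and 297 against 269 and 242 FPKM after 8.5 days. Its change was -0.09 ± 0.23 and -0.51 ± 0.23. Acot2, a mitochondrial thioesterase that releases fatty acids from CoA, had the largest positive estimate of this role after 2.5 days (0.46 ± 0.34) at the lowest level of all members, 2.14 and 2.39 FPKM in Cre- and 3.16 and 4.71 FPKM in Cre+ EDL muscles. After 8.5 days Acot2 was at 2.65 and 5.59 against 3.67 and 3.15 FPKM. Its close paralog Acot1 may share reads with it, so its values are uncertain.

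Of beta-oxidation and electron transfer, 5 of 16 members were lower after 2.5 days and 6 after 8.5 days. Acadvl, the dehydrogenase that takes the longest acyl chains, led after 2.5 days, with its gene at chr11:70010183-70015428 on the minus strand. It stood at 191 and 204 FPKM in Cre- and at 137 and 133 FPKM in Cre+ EDL muscles, a change of -0.88 ± 0.14 (adjusted p = 0.00068). On day 8.5 Acadvl was at 194 and 185 against 133 and 153 FPKM, a change of -0.58 ± 0.14 (adjusted p = 0.014), and the groups were apart on both days. Of the dehydrogenases of shorter chains, Acadl (-0.14 ± 0.13 and -0.13 ± 0.13) and Acadm (-0.51 ± 0.19 on both days, adjusted p = 0.067 and 0.093) were not called, and Acads was called after 2.5 days (-0.58 ± 0.12) and not after 8.5 days (-0.43 ± 0.12). The differences between these dehydrogenases were not tested.

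Etfa and Etfb, the subunits of the flavoprotein that takes electrons from these dehydrogenases, were lower on both days. Etfb, the most abundant gene of this role in Cre- EDL muscles, stood at 262 and 255 FPKM in Cre- and at 212 and 212 FPKM in Cre+ EDL muscles after 2.5 days, and at 299.8 and 238 against 192 and 222 FPKM after 8.5 days. No Cre+ library reached a Cre- library of its day, and the changes were -0.62 ± 0.14 and -0.55 ± 0.14 (adjusted p = 0.0051 and 0.017). Etfa changed by -0.53 ± 0.16 and -0.55 ± 0.16, close to the fold threshold of 0.5. With 1 library left out, its estimate ran from -0.58 to -0.49 after 2.5 days and from -0.75 to -0.30 after 8.5 days. Etfdh, which hands the electrons to ubiquinone, changed by -0.29 ± 0.13 (not called) and -0.62 ± 0.13 (called).

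The trifunctional protein, which carries the later steps for long chains, has the subunits Hadha and Hadhb, which are transcribed in opposite directions from one stretch of chromosome 5. The 250 bases before the start of Hadhb (chr5:30155003-30155252, plus strand) end at that start and begin 22 bases from the start of Hadha, and their 17 CpG are in capitals.
Hadha and Hadhb: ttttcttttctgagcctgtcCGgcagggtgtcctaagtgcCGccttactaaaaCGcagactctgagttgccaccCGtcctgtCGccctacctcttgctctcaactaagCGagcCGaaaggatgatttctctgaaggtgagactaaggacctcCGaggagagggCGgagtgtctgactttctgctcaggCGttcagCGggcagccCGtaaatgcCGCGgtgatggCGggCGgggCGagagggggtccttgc
Hadhb was lower on both days, from 93.5 and 80.9 FPKM in Cre- to 66.0 and 66.1 FPKM in Cre+ EDL muscles after 2.5 days (-0.73 ± 0.13) and from 99.1 and 83.3 to 63.7 and 72.8 FPKM after 8.5 days (-0.59 ± 0.13). Hadha, read from the other strand of the same stretch, was not called, with -0.29 ± 0.15 and -0.27 ± 0.15. The difference between these subunits was not tested.

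Acaa2, the last thiolase of the pathway, had the highest estimate of the 16. It stood at 134 and 148 FPKM in Cre- and at 209 and 191 FPKM in Cre+ EDL muscles after 2.5 days, and at 156 and 136 against 200.5 and 193 FPKM after 8.5 days. Every Cre+ library was above the Cre- libraries in FPKM, but relative to the bulk of genes the change was 0.17 ± 0.14 and 0.25 ± 0.14 and was not called. Eci1, an isomerase for unsaturated chains, was called lower after 8.5 days (-0.89 ± 0.22), and its relative Eci2 was at 0.16 ± 0.11 and 0.01 ± 0.11. The remaining genes of this role (Hadh, Echs1, Decr1 and Ech1) had estimates of -0.51 to -0.18 over both days and were not called.

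Both members of ketone body use were called lower after 2.5 days, but neither is among those called whichever library was left out. With 1 library left out, their estimates ran from -0.69 to -0.53 for Oxct1 and from -0.66 to -0.39 for Acat1. Oxct1, which activates acetoacetate, stood at 147 and 156 FPKM in Cre- and at 128 and 122 FPKM in Cre+ EDL muscles (-0.61 ± 0.17, adjusted p = 0.02). After 8.5 days Oxct1 was at 189 and 144 against 132 and 157 FPKM, with overlap and no call (-0.38 ± 0.17). Acat1, which splits acetoacetyl-CoA, stood at 73.9 and 59.3 against 54.2 and 61.7 FPKM after 2.5 days and at 89.8 and 68.9 against 53.1 and 59.5 FPKM after 8.5 days. Acat1 was called lower on both days (-0.53 ± 0.16 and -0.67 ± 0.16), although its FPKM overlapped on the first.

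In SOL muscles 0 members were called on either day by edgeR, against 0.384% of all genes after 2.5 days and 0.631% after 8.5 days. After 2.5 days the members were nonetheless nearly all below 0: 45 of 47 estimates were negative, the median was -0.35 against 0.02 for all genes, and both Cre+ libraries lay below both Cre- libraries for 42 members, against 24.4% of all genes. At an unadjusted p under 0.05 there were 24 members, all lower, against 13.4% of all genes in either direction. DESeq2 on the same libraries called 3, Cpt1b, Acadvl and Etfb. The 0.384% above is the share of edgeR, and the share of all genes that DESeq2 called is not given here. After 8.5 days 44 estimates were negative, the median was -0.19, both Cre+ libraries lay below both Cre- libraries for 30 members (against 19.9%), and 0 were called by DESeq2. On that day 4 members had an unadjusted p under 0.05, a share near the 6.6% of all genes.

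The lowest estimates in SOL muscles were in fatty acid genes. Eci1 had the lowest on both days, -0.67 ± 0.21 and -0.61 ± 0.21, and its second value ran from -0.93 without the second Cre- library to -0.19 without the first. After 2.5 days Fabp3 (-0.54 ± 0.23), Ech1 (-0.54 ± 0.18) and Etfb (-0.52 ± 0.14) came next, and after 8.5 days Lpl and Acot2 (-0.496 ± 0.32). Cpt1b had -0.51 ± 0.15 and -0.44 ± 0.15. There Cpt1b was at 292 and 281 FPKM (Cre-) against 215 and 232 FPKM (Cre+) after 2.5 days, and at 283 and 339.7 against 243 and 226 FPKM after 8.5 days. Acadvl stood at 394 and 486 against 359 and 337 FPKM after 2.5 days and at 367 and 412 against 315 and 317 FPKM after 8.5 days, and Etfb at 486 and 539 against 412 and 381 FPKM and at 433 and 429 against 378 and 367 FPKM. None of these values of Cpt1b, Acadvl and Etfb overlapped between genotypes on the same day.

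Lpl in SOL muscles was at 482 and 494 FPKM (Cre-) against 336 and 442 FPKM (Cre+) after 2.5 days, and at 417 and 395 against 268 and 318 FPKM after 8.5 days, below in each Cre+ library but not called (-0.48 ± 0.24 and -0.51 ± 0.24). Adipocyte markers, which summed to 380.3 to 716 CPM in Cre- and 653 to 687 CPM in Cre+ SOL muscles after 2.5 days and to 352 to 811 and 454 to 487 CPM after 8.5 days, overlapped between genotypes. Mdh1 was lower in every Cre+ SOL library of its day, and Mdh2 on the second day only. Mdh1 stood at 872 and 1141 against 849.8 and 776 FPKM after 2.5 days and at 748 and 985 against 698 and 712 FPKM after 8.5 days. Mdh2 stood at 1040 and 1334 against 1044 and 981 FPKM and at 951 and 1031 against 858 and 909.6 FPKM. Fabp3, at 1527 and 2072 against 1592 and 1144 FPKM and at 1512 and 1744 against 1560 and 1136 FPKM, overlapped on both days, as did Cs on the second (460.1 and 473 against 430.1 and 399.6 FPKM, then 476 and 440.3 against 438 and 459.9 FPKM).

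Pdha1 in SOL muscles was at 402 and 472 FPKM (Cre-) against 448 and 492 FPKM (Cre+) after 2.5 days and at 309 and 315 against 323 and 315 FPKM after 8.5 days. Pcx stood at 19.3 and 13.6 against 14.6 and 16.2 FPKM and at 19.4 and 15.2 against 13.5 and 15.7 FPKM. Cd36 stood at 181 and 194 against 177 and 207 FPKM and at 142 and 184 against 159 and 132 FPKM. These values of Pdha1, Pcx and Cd36 overlapped between genotypes on both days.

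Acaa2 stood at 425 and 483 against 413 and 347 FPKM after 2.5 days and at 365 and 369 against 381 and 308 FPKM after 8.5 days. Acot2 stood at 11.3 and 9.72 against 6.78 and 9.95 FPKM and at 17.7 and 21.4 against 18.2 and 10.3 FPKM. Acot2 overlapped between genotypes on both days, and Acaa2 on the second. Oxct1 stood at 223 and 250.1 against 246 and 235 FPKM and at 202 and 174 against 182 and 205 FPKM. Acat1 stood at 148 and 151 against 122 and 126 FPKM and at 140 and 121 against 109 and 111 FPKM, and was the only one of this pair to lie lower in every Cre+ SOL library.

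Whether EDL and SOL muscles differed in their change was tested directly. After 2.5 days the difference was called for 1 member, Idh2, against 4.25% of all genes, and after 8.5 days for 0, against 0.592%. Thus the falls that were called in EDL and not in SOL muscles are not shown to be particular to EDL. The OSKM sum was also lower in Cre+ SOL than in Cre+ EDL muscles, so the muscle and the level of OSKM cannot be told apart. After 8.5 days 12 members had an unadjusted p under 0.05 for this difference, against 11.2% of all genes, 11 of them with a deeper fall in EDL, and DESeq2 called Idh2 alone. The estimates of both muscles share no libraries, but the 2 muscles may come from the same mice, which the labels do not tell.

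After 5.5 days, a time at which the OSKM sum stood well above the Cre- libraries in 1 of 4 Cre+ libraries, 0 members were called in EDL muscles, against 0.304% of all genes, and 0 in SOL muscles, against 0% of all genes (597 of them at an unadjusted p under 0.05). The OSKM sum was 35.2 CPM in the first and 252 CPM in the second Cre+ EDL library, beside 33.1 and 33.8 CPM in Cre- EDL muscles. In EDL muscles the median of the members was -0.21 against -0.01 for all genes, 43 of 47 estimates were negative, and 12 had an unadjusted p under 0.05, against 8.44% of all genes. The members' median was -0.22 in the Cre+ library with OSKM near the Cre- level and -0.26 in the other, and both lay below both Cre- libraries for 37 members, against 21.1% of all genes.

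For example, Pdhb stood at 182 and 195 FPKM in Cre- and at 164 and 159 FPKM in Cre+ EDL muscles after 5.5 days (-0.37 ± 0.11), and Cs at 371 and 362 against 342 and 308 FPKM (-0.32 ± 0.13). Mdh1, at 429 and 448 against 438 and 383 FPKM, and Idh2, at 212 and 189 against 219 and 294 FPKM, had -0.24 ± 0.17 and 0.21 ± 0.19. In SOL muscles the OSKM sum was 24.2 and 44.8 CPM in Cre+ beside 48 and 46.8 CPM in Cre- libraries, raised in neither. There the members' median was 0.01, 23 estimates were negative, 0 members had an unadjusted p under 0.05, and both Cre+ libraries lay below both Cre- libraries for 5 members, against 18% of all genes. DESeq2 called 0 members in either muscle after 5.5 days.

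The muscles of Cre- mice differed in these genes by role. In the fit of the 16 libraries, 29 members were lower and 1 was higher in EDL than in SOL muscles, against 11.1% and 10.8% of all genes, and the median log2 difference was -0.91 against 0.01. All 7 members of fatty acid uptake and activation and all 16 of beta-oxidation and electron transfer were lower in EDL muscles, with medians of -1.36 and -1.07, and for all 23 every EDL library lay below every SOL library in FPKM, as for 17.8% of all genes. In pyruvate entry 2 of 9 were lower, Pdk4 (-1.87 ± 0.24) and Pdk1 (-1.10 ± 0.15), and the subunits of the complex were between -0.26 and 0.00. In the TCA cycle 3 of 13 were lower, Idh2, Mdh1 and Suclg2, and Idh3a was higher.

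**Figure D4:**
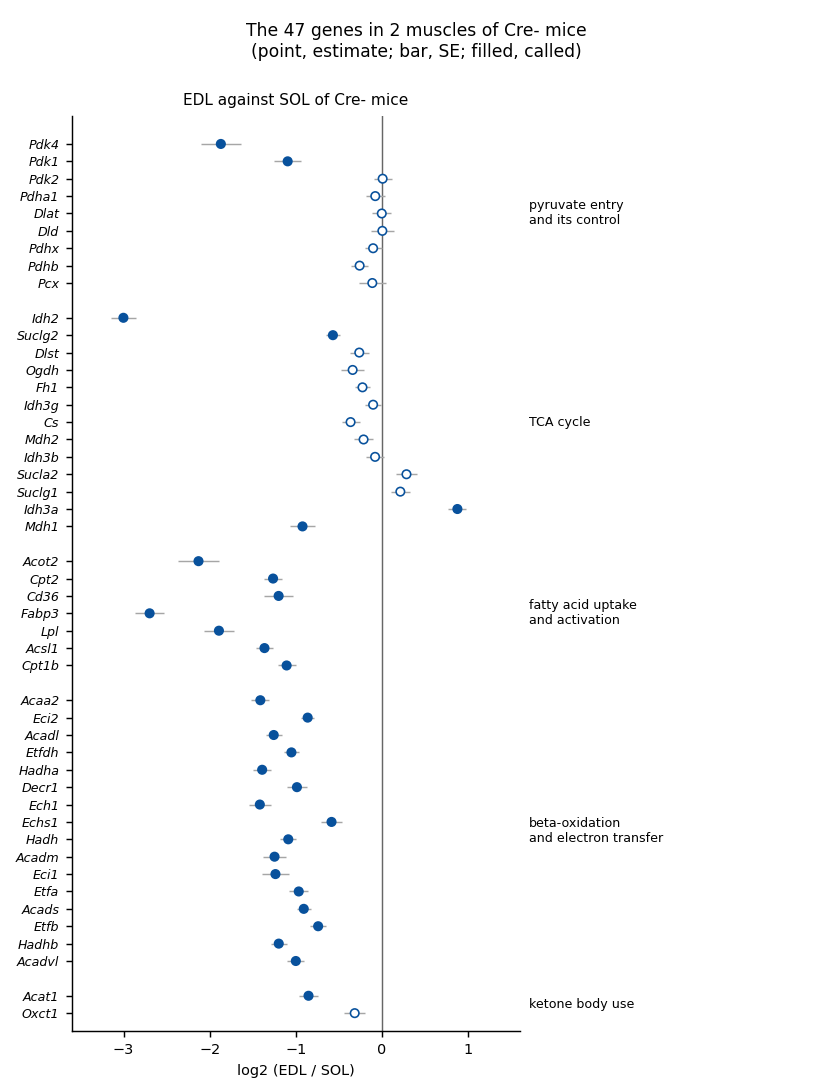
The log2 difference between EDL and SOL muscles of Cre- mice is plotted for the 47 genes by role (point, mean of the differences at 2.5 and 8.5 days; bar, SE; filled point, called; n = 4 libraries per muscle). All genes of the 2 fatty acid roles are filled on the left, most genes of pyruvate entry and the TCA cycle lie near 0, Idh2 lies at -3.00 and Idh3a alone is filled on the right.

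Idh2 had the widest gap, with a mean of 159 ± 38.2 FPKM in EDL and of 1341 ± 139.7 FPKM in SOL libraries of Cre- mice (SD, n = 4 each), an 8.44-fold difference in FPKM and -3.00 ± 0.14 on the log2 scale (adjusted p = 5.1e-08). Fabp3 followed, with 255 ± 84.9 and 1714 ± 261 FPKM. Idh3a ran the other way, with 356 ± 13.2 FPKM in EDL against 209 ± 37.6 FPKM in SOL muscles (0.87 ± 0.10, adjusted p = 3.9e-05). Thus the NAD-dependent subunit Idh3a was the more abundant per length in EDL muscles and Idh2 in SOL muscles.

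Lpl, at 113 ± 30.9 against 447 ± 48.5 FPKM, and Acsl1, Cd36 and Cpt1b (-1.36 ± 0.09, -1.20 ± 0.17 and -1.11 ± 0.10) were lower in EDL muscles. Adipocyte markers were lower in EDL muscles too, with 7 of 7 called, against 11.1% of all genes. They summed to 164 to 252 CPM in EDL and to 352 to 811 CPM in SOL muscles. Their part in the levels of Lpl and Cd36 was not tested. The difference between muscles was stable: 29 of the 30 calls held with any one library left out, and Echs1 was the exception.

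Other pathway genes came from lists of 25 genes of pyruvate and the TCA cycle and 46 of fatty acid uptake, storage and oxidation. A further list held 16 regulators. In Cre+ EDL muscles each list held called falls on both days, while called rises were near or under the share of all genes. Of the first list 11 were lower and 3 higher in Cre+ EDL muscles after 2.5 days, against 10.2% and 13.8% of all genes, and 11 lower and 0 higher after 8.5 days, against 6.5% and 7.63%. The falls included Got1 (-1.19 ± 0.17 after 2.5 days), the cytosolic aminotransferase that works beside Mdh1 in the malate-aspartate shuttle, and Mpc2 (-0.85 ± 0.15), of the mitochondrial pyruvate carrier. After 8.5 days the deepest were Me3 (-1.14 ± 0.14) and Mpc2 (-0.81 ± 0.15). The rises of 2.5 days were led by Me2, the mitochondrial malic enzyme (1.47 ± 0.19), and Pdk3 (1.13 ± 0.31), a pyruvate dehydrogenase kinase outside the members.

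Of the fatty acid list, 10 were lower and 7 higher after 2.5 days, and 9 lower and 2 higher after 8.5 days. Beside the same shares of all genes, the rises were near the background after 2.5 days and under it after 8.5 days. The falls were led on both days by Lpin1 (-1.30 ± 0.23 and -1.36 ± 0.23), a phosphatidate phosphatase that also serves as a coactivator of oxidative genes, and Slc27a1, a fatty acid transporter (-1.06 ± 0.17 and -0.997 ± 0.17). The rises were led by Angptl4 (2.85 ± 0.64), an inhibitor of lipoprotein lipase, after 2.5 days, and by Decr2 (1.604 ± 0.20 and 1.17 ± 0.20), of peroxisomal oxidation, and Acot9 (1.601 ± 0.20 and 1.76 ± 0.20), a mitochondrial thioesterase, on both days. Acot9 was also higher in Cre+ SOL muscles on both days (1.09 ± 0.19 and 1.13 ± 0.19), and Acsl3 after 2.5 days (1.09 ± 0.20). Of this list 2 were thus called higher in SOL muscles after 2.5 days and 1 after 8.5 days, with 0 lower. Among all genes 0.384% and 0.631% were called there in either direction. In EDL muscles after 5.5 days Acot9 alone of the list was called, and higher, against 0.304% of all genes.

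Of the regulators, Ppargc1a (PGC-1alpha), the coactivator of mitochondrial genes, was lower after 2.5 days (-0.98 ± 0.19), with Ppara (-0.77 ± 0.19), the receptor that drives fatty acid oxidation genes, and Ppargc1b (-0.64 ± 0.22). The same 3 were lower after 8.5 days together with Esrra, the partner receptor of PGC-1alpha, and Prkaa1, a catalytic subunit of AMPK, was higher after 2.5 days (0.68 ± 0.15). Of the 16 regulators, 3 were thus called lower and 1 higher in EDL muscles after 2.5 days, against 10.2% and 13.8% of all genes. After 8.5 days 4 were lower and 0 higher, against 6.5% and 7.63%. In SOL muscles edgeR called 0 of the 16 on either day. There 1 and 2 had an unadjusted p under 0.05, against 13.4% and 6.6% of all genes.

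Other genes of the muscle moved beside the members. In Cre+ EDL muscles 5 of 9 fast fibre markers were called lower after 2.5 days (Pvalb, Tnni2, Tnnt3, Tnnc2 and Myh1), against 10.2% of all genes. After 8.5 days 2 were called lower, against 6.5%. The summed level of the 9 was 103542 to 140323 CPM in Cre+ against 152509 to 167051 CPM in Cre- muscles after 2.5 days. After 8.5 days it was 135324 to 139859 against 134870 to 166962 CPM. The sums of slow fibre markers overlapped between genotypes in EDL muscles on both days, and edgeR called 0 of 8, with 0 at an unadjusted p under 0.05. Macrophage markers summed to 102 to 127 CPM in Cre- and 107 to 142 CPM in Cre+ EDL muscles after 2.5 days, and erythroid markers to 365 to 752 and 294 to 686 CPM. The macrophage sums did not overlap in EDL muscles after 8.5 days, at 175 to 180.4 against 197 to 275 CPM. Nor did they in SOL muscles, at 99.96 to 114 against 132 to 155 CPM after 2.5 days and 141 to 189 against 196 to 215 CPM after 8.5 days. After 5.5 days they overlapped in both muscles. By edgeR, 0 of the 7 macrophage markers were called in either muscle after 2.5 or 8.5 days. At an unadjusted p under 0.05 there was 1 in each muscle after 2.5 days and 0 after 8.5 days. Liver transcripts, which a muscle should lack, summed to 71 to 194 CPM in Cre- SOL muscles after 8.5 days. In Cre+ SOL muscles of that day the sum was 9.19 to 16.4 CPM, and 8 of 9 were called lower. Of all genes, 0.631% were called there in either direction. In EDL muscles of that day liver transcripts summed to 15.5 to 16.5 CPM (Cre-) and 5.35 to 11.1 CPM (Cre+). Of the 9, 6 were called lower, against 6.5% of all genes. The part of these macrophage, erythroid and liver transcripts in the levels of the 47 genes was not tested.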

How the data were processed

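The deposited values are raw counts per gene. The authors aligned the reads to mm10 (GRCm38) with STAR 2.5.3a and used HOMER to count uniquely aligned reads on RefSeq exons, per the study's methods and the labels' processing notes. The strand setting of the counting is not given in the sources used here. FPKM and CPM were computed here from these counts, exon lengths and library totals.

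Genes were compared by edgeR 4.0.16 under R 4.3.3 (TMM, filterByExpr with a minimum count of 10, quasi-likelihood test, 1 mean per group), and p values were adjusted by Benjamini-Hochberg over all genes tested. One fit held the 16 libraries of 2.5 and 8.5 days (15372 genes), and 5.5 days came from a fit of 24 libraries (15478 genes). SE was the log2 change divided by the square root of F. On simulated data with 200 genes changed 2-fold in EDL after 2.5 days (15081 genes), edgeR recovered 128 with 8 others.

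The members, lists and tests were chosen with earlier results of these data known. Genes given in every library are, per role, the most abundant in Cre- EDL and the largest rise and fall after 2.5 days in EDL, members called in SOL or between muscles or days, and Cs, Pdk4, Cpt1b, Lpl and Cd36. Hadha, Hadhb and Pdhb were added after their values were seen. Promoter windows are from RefSeq (GRCm38.p6), and the first listed window of a gene was used. The alternatives were DESeq2 1.42.0, other scalings, filters, thresholds and library sets, the replicate number as a block, and the omission of each library in turn. To learn whether replicate numbers pair libraries, deviations from group means were correlated between libraries.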

Additional observations from a re-analysis of the deposited data

Results flagged for a closer look

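The change of Idh2 in Cre+ muscles differed between EDL and SOL muscles after 2.5 days by 1.607 on the log2 scale (SE 0.27, adjusted p = 0.0082, edgeR's test of the difference itself), and both Cre+ EDL libraries lay above, and the Cre+ SOL mean lay below, the Cre- libraries of their muscle. The difference was called with any one library left out and in DESeq2. Outliers could not be looked for within groups of 2 libraries.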

How the results depend on the processing

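Each group held 2 libraries, so single libraries weigh heavily, and small changes could not be told from 0. Of 526 values of single genes under another setting, 433 kept their direction and side of the threshold, 83 lost the call, 10 gained one and 0 reversed. The members called lower in EDL after 2.5 days (21) numbered 2 with a threshold of log2 1, 3 with library size alone, and 13 to 20 with a library left out, and those called higher (1) numbered 3 with library size alone and 1 to 2 with a library left out. Those lower after 8.5 days (23) numbered 0 with a threshold of log2 1, 10 with library size alone, 1 in an edgeR fit of the 4 libraries, and 1 to 23 with a library left out, and 1 was higher in DESeq2 (16 or 4 libraries) and with library size alone. In SOL after 2.5 days DESeq2 called 3 lower, and 5 on the 4 libraries. The difference between muscles after 2.5 days was called higher in EDL for 2 members (Idh2 and Acaa2) by DESeq2 and with library size alone, and after 8.5 days for 1 by DESeq2. Idh3a was not above a threshold of log2 1 between Cre- muscles, which left 0 higher. With library size alone the members' median was -0.1727 and -0.3351 in EDL after 2.5 and 8.5 days, -0.1981 in SOL after 2.5 days and -0.07084 in EDL after 5.5 days. FPKM by TMM-scaled library size moved the levels of 15 of 17 named genes by more than 1 SD. The cause of these differences was not tested, beyond fewer samples or a stricter threshold where the setting itself gives it. The shares of all genes called under these other settings are not given here.

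With the replicate number as a replicate block, 13 members were lower in EDL after 8.5 days and 17 after 2.5 days. Between Cre- muscles the block left 29 members lower and 1 higher in EDL, and the difference of Idh2 between muscles after 2.5 days at 1.623 (adjusted p = 0.004079). Same-numbered Cre+ and Cre- libraries correlated from -0.25 to 0.10 in their deviations from group means. Same-numbered EDL and SOL libraries correlated positively in all 6 pairs, from 0.24 to 0.51 in 5 and at 0.0989 in Cre- muscles of 8.5 days, so not every pair was over 0.1 and the numbers were not taken as pairs.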
